A study of Bos taurus with 16 samples.

Results

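Retinoid metabolism and binding was followed through 8 genes, RBP4, ALDH1A1, CRABP1, CRABP2, RARA, RXRA, RARRES1 and RARRES2, in CD14+ cells of pregnant cows. Members were the probes whose gene name, or the symbol in brackets in the description, was one of these 8 symbols. This gave 8 probes, and for RXRA A_73_110602 and RARRES1 A_73_120736 the description stood in another column of the file. RXRA and RARRES1 each had a further probe, listed under a locus number, which was added through the gene identifier in the RefSeq table of names. The result was 10 probes of 8 genes, among 21475 probes with 19803 distinct gene names.

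CD14+ cells were sorted by flow cytometry from peripheral blood mononuclear cells and from enzymatically dispersed endometrial stroma of the same 4 pregnant cows, obtained at an abattoir, with no treatment named in the labels. Animals 1 to 4 were at days 164, 239, 242 and 248 of pregnancy, so every animal gave 1 blood and 1 endometrial preparation and no group lacked pregnancy. Breed and age of the cows are not given in the labels, which list the endometrial preparations as less pure than the blood preparations by flow cytometry. RNA was amplified before labeling, and the 2 preparations of an animal were hybridized together on 2 Agilent bovine arrays that count as 1 replicate.

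Retinol travels in plasma bound to retinol binding protein, is oxidized in cells to retinal and then, by retinal dehydrogenases, to retinoic acid. Cellular binding proteins carry retinoic acid in the cytoplasm, and it acts on gene expression through retinoic acid receptors paired with retinoid X receptors. In the uterus this system is known from the epithelium and stroma and from the conceptus, and in macrophages retinoic acid is known to take part in differentiation and immune tolerance.

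The sort label was compared with the genes that define the cell type. Signals are given on the normalized log2 scale, on which probes that were not well above background in any of the 8 channels of a tissue had medians of 5.9996 in blood and 5.9983 in endometrium. CD14, the antigen of the sort, had blood signals of 14.24, 6.30, 7.63 and 6.69 in animals 1 to 4, and endometrial signals of 12.17, 6.41, 8.14 and 6.82. CD14 was thus close to the background in both preparations of animals 2 and 4, although well above it by the scanner's flag in all 8 channels of each tissue. In blood, the summed linear signal of the 12 macrophage and monocyte markers was 206492 in animal 1 and 44584 to 58880 in the others. In endometrium it was 160041 and 71268 to 95755. LAPTM5 and PTPRC were the brightest of these markers in blood of animals 2 to 4. LAPTM5 stood at 15.12, 14.46 and 14.72 there and at 14.63 in animal 1, PTPRC at 14.02, 14.05 and 14.41 against 14.47. Every other marker was clearly brighter in blood of animal 1, CD163 at 13.21 against 7.53, 8.35 and 8.26. The blood sums of animals 2 to 4 thus rest mostly on LAPTM5 and PTPRC. For the 10 natural killer and T cell markers the sum in blood was 3400 in animal 1 and 22997 to 49457 in the other animals. The 7 B cell markers summed in blood to 7401 in animal 1 and to 16706 to 47824 in the other animals. Animal 1 therefore stood apart, and the fits were repeated without it. Fewer cells of a type and less RNA per cell cannot be told apart in such bulk preparations.

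The probes that carry the comparison are oligonucleotides of 60 bases. The first 30 bases, as the scanner files list them, are given for the probes of RBP4, ALDH1A1, CRABP1, CRABP2 and RARA, because their ratios had the same sign in all 4 animals. They are also given for both RARRES1 probes, because those gave different values. No base is singled out by capitals, and the place of the probes in their genes was not analysed here.
RBP4 A_73_117622: ggaatcatttgaggcttaggattccagact
ALDH1A1 A_73_119364: tgtcatgtctgcttgtcaagtgaagtaatg
CRABP1 A_73_116352: tctccctggcgctcatagtctggcatctgt
CRABP2 A_73_103163: ttttctgcaaggggacccgagggcctaagt
RARA A_73_102695: ccccagagcccgctggtgcacctgttactg
RARRES1 A_73_111921: gtggcactgacggagcttagtaatttctga
RARRES1 A_73_120736: ctatggtgtagggtggtggctacaactctt
The longest run of bases that the full RARRES1 probes share is 5 bases, so they hybridize with different stretches. The same holds for the RXRA probes, which also share no run over 5 bases.

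The carrier RBP4, the enzyme ALDH1A1 and the responder RARRES1 (by probe A_73_111921) were higher in endometrial than in blood preparations in 4 of 4 animals. Their mean fold changes were 12.9, 5.55 and 25.8. The ratios compare preparations sorted as CD14+, and CD14 was close to the background in both preparations of animals 2 and 4. They can therefore not be read as macrophages against monocytes. CRABP1 and CRABP2 were also higher in 4 of 4 animals, but with blood signals at or near the background. The sizes of their differences cannot be ranked against those of RBP4, ALDH1A1 and RARRES1. Blood signals of ALDH1A1 in animals 2 and 4 and of RBP4 in animal 2 were near the background too. The fold changes of ALDH1A1 and RBP4 are therefore uncertain in size. RARA was the member that was lower in endometrium in 4 of 4 animals. Within each animal, endometrium was divided by blood, and limma compared the log2 ratios with 0. The fit covered the 16653 probes that exceeded the background clearly in 4 or more of the 8 channels of either tissue. After adjustment of p by the Benjamini-Hochberg method, with limits of 0.05 and a fold change above 2, 0 of the 10 member probes were called, where 0.0661% of all probes tested were called. At an unadjusted p of at most 0.05 with the same fold change, limma listed 5 of the 10, against 10.4% of all probes. They were RBP4, ALDH1A1, RARRES1 A_73_111921 and RARRES2, higher in endometrium, where 5.28% of all probes passed in that direction, and RARA, higher in blood, where 5.11% did. At an unadjusted p under 0.05 and any fold change, 6 of the 10 passed, CRABP2 being added. Without animal 1, limma called 0 of the 10 after adjustment and listed 4 at the unadjusted limits.

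All 10 member probes passed the filter on dim probes, but CRABP1, CRABP2 and RARRES1 A_73_120736 passed through endometrium alone, so a count over the members is not evidence of a direction. The median log2 ratio was 0.90 over the 10 probes and -0.02 over all probes tested. In 5 of the 10 probes all 4 animals were higher in endometrium, which 10.2% of all probes showed, and in 1 all were higher in blood, which 14.7% showed. Exchanging blood and endometrium within 4 animals, an exact 2-sided permutation test could not reach a p under 0.125. The spread between the 2 arrays of an animal was small beside that between animals, since their ratios differed by a median of 0.11 and at most 0.58 over the 40 pairs of member values. In animal 3 endometrium was in Cy5 on both arrays, so dye and tissue cannot be told apart there for any probe. That animal had the largest ratio in size for RBP4, ALDH1A1, CRABP1, CRABP2 and RARA, and animal 1 had it for RARRES1 A_73_111921, RARRES2 and RXRA A_73_110602. The plot of signals by animal shows both preparations of each animal for every member probe.

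**Figure D1:**
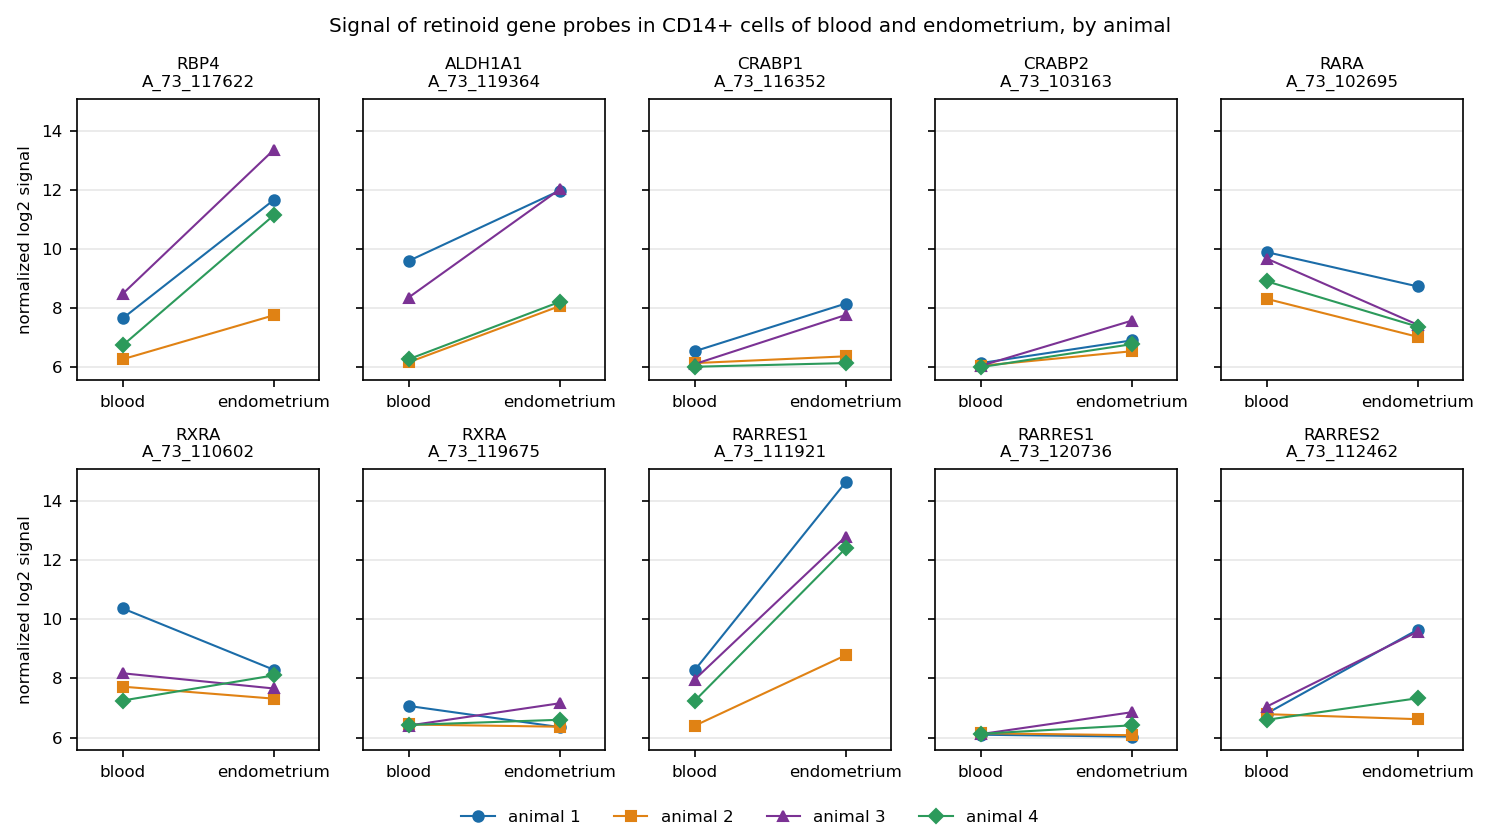
Normalized log2 signal of each member probe (y axis) in blood and endometrial CD14+ cells (x axis), with a line joining the preparations of an animal and a color and marker for each of the 4 animals. RBP4, ALDH1A1 and RARRES1 A_73_111921 are higher in endometrium in every animal, RARA is lower in every animal, and RARRES1 A_73_120736 and CRABP2 lie near 6, the signal of probes at the background, in every blood preparation.

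RBP4, the carrier that takes retinol through plasma, had signals in blood of 7.65, 6.26, 8.48 and 6.73 in animals 1 to 4, and in endometrium of 11.65, 7.75, 13.35 and 11.14. Endometrium was higher in each animal, and the groups overlapped because the endometrial signal of animal 2 was below the blood signal of animal 3. The log2 ratios were 4.01, 1.49, 4.87 and 4.40, with a mean of 3.69 (adjusted p = 0.228 with limma, 95% confidence interval 2.20 to 5.19, SE 0.60), a fold change of 12.9. This was the 33rd largest ratio of the 16653 probes tested. Without animal 1 the mean was 3.59, and without animal 2 it was 4.43. The probe was well above background in 8 endometrial channels and 6 blood channels.

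ALDH1A1 encodes a retinal dehydrogenase, an enzyme that makes retinoic acid. Its blood signals were 9.59, 6.16, 8.35 and 6.26 in animals 1 to 4, and its endometrial signals were 11.97, 8.06, 12.01 and 8.21. Animals 1 and 3 were higher than animals 2 and 4 in both tissues, so the tissues overlapped although each animal was higher in endometrium. Ratios of 2.38, 1.90, 3.66 and 1.94 gave a mean log2 ratio of 2.47 (adjusted p = 0.178 with limma, 95% confidence interval 1.56 to 3.38, SE 0.36), a fold change of 5.55. The mean was 2.50 without animal 1 and 2.08 without animal 3. Blood signals of animals 2 and 4 were near the background, and 6 of 8 blood channels were well above it.

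CRABP2, which hands retinoic acid to its nuclear receptors, exceeded the background clearly in all 8 endometrial channels but in 0 of 8 blood channels. Blood signals were at most 6.13, and endometrial signals were 6.90, 6.53, 7.57 and 6.77 in animals 1 to 4. The tissues did not overlap, which 2.41% of all probes showed in this direction, but a blood signal at the background leaves only a bound. CRABP2 was at least 1.83-fold higher in endometrium, where the means on the log2 scale were 6.05 ± 0.06 in blood and 6.94 ± 0.44 in endometrium (SD, n = 4) and the adjusted p was 0.263 with limma. For the bound, the blood signal of every array was replaced by its lowest signal that passed as well above background unless CRABP2 itself was brighter, which leaves it open to dye bias in animal 3, whose dyes were not swapped.

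CRABP1 binds retinoic acid in the cytoplasm and is linked with its breakdown. It was well above background in 6 endometrial and 2 blood channels. In endometrium the signals were 8.15 in animal 1 and 7.76 in animal 3, but 6.36 in animal 2 and 6.13 in animal 4, and blood signals lay between 6.01 and 6.53. The log2 ratios of 1.62, 0.23, 1.66 and 0.12 in animals 1 to 4 had a mean of 0.91 (adjusted p = 0.335 with limma, SE 0.37). In blood, 6 of the 8 channels were not well above background, so the size of this ratio is uncertain. It was 3.13 in the authors' log2 values (adjusted p = 0.118 with limma). With the scanner's processed signal it was 3.09 (adjusted p = 0.154 with limma). The cause of these differences was not tested. On the normalized log2 scale, CRABP1 signals of the tissues were well separated in animals 1 and 3 and close in animals 2 and 4.

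RARA, the retinoic acid receptor alpha, had blood signals of 9.89, 8.31, 9.67 and 8.90 in animals 1 to 4 and endometrial signals of 8.73, 7.02, 7.43 and 7.37. Blood was higher in each animal, and the ranges overlapped because the endometrial signal of animal 1 exceeded the blood signal of animal 2. Log2 ratios of -1.16, -1.29, -2.24 and -1.54 had a mean of -1.56 (adjusted p = 0.235 with limma, 95% confidence interval -2.22 to -0.89, SE 0.27), which is 2.94-fold lower in endometrium. RARA was well above background in all channels. Its ratios had an SD of 0.48 over the animals, against 1.51 for RBP4 and 1.67 for RARRES1 A_73_111921. Without animal 1 the mean was -1.69, and without animal 3 it was -1.33.

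RXRA, the retinoid X receptor alpha and the partner of RARA on DNA, gave no common direction. Probe A_73_110602 had blood signals of 10.37, 7.72, 8.18 and 7.25 in animals 1 to 4 and endometrial signals of 8.30, 7.32, 7.66 and 8.10. Its mean log2 ratio was -0.54 (adjusted p = 0.627 with limma, 95% confidence interval -1.76 to 0.69, SE 0.49), and without animal 1 it was -0.02. Blood of animal 1 gave the highest RXRA signal and also the highest signals of CD14 and of the summed macrophage and monocyte markers, and their part in the ratio was not tested. Probe A_73_119675 had ratios of -0.72, -0.08, 0.75 and 0.17 and a mean of 0.03 (adjusted p = 0.978 with limma, SE 0.30), with a 95% confidence interval of -0.72 to 0.79.

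RARRES1, a membrane protein named for its response to retinoic acid receptor ligands, had the largest ratio of the members with probe A_73_111921. Blood signals were 8.28, 6.40, 7.96 and 7.24 in animals 1 to 4, and endometrial signals were 14.64, 8.79, 12.80 and 12.41. Every endometrial signal was above every blood signal. Log2 ratios of 6.37, 2.39, 4.84 and 5.17 gave a mean of 4.69 (adjusted p = 0.165 with limma, 95% confidence interval 3.05 to 6.33, SE 0.65), a fold change of 25.8 and the 6th largest ratio of all probes tested. All channels of both tissues had it well above background. Without animal 1 the mean was 4.13, and without animal 2 it was 5.46.

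The other RARRES1 probe, A_73_120736, did not show this difference. It was well above background in 4 endometrial channels and 0 blood channels, with blood signals of 6.10 to 6.15. Endometrial signals were 6.86 in animal 3 and 6.41 in animal 4 but 6.03 in animal 1 and 6.08 in animal 2, and the bound was at least 1.17-fold higher in endometrium (adjusted p = 0.695 with limma). The RARRES1 result thus rests on the probe listed under a locus number, in which animal 1 had the highest endometrial signal, while the probe found by symbol was at the background in that preparation.

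RARRES2 encodes chemerin, a chemoattractant for macrophages and dendritic cells. Blood signals lay close together, at 6.81, 6.79, 7.05 and 6.60 in animals 1 to 4, and endometrial signals were 9.65, 6.62, 9.58 and 7.33. The ratio was large in animals 1 and 3 (2.84 and 2.54), smaller in animal 4 (0.73) and -0.17 in animal 2. Its mean was 1.48 (adjusted p = 0.318 with limma, 95% confidence interval 0.05 to 2.92, SE 0.57), a fold change of 2.80. Without animal 1 the mean was 1.03 and without animal 2 it was 2.04. In the authors' log2 values the ratio was 2.33 (adjusted p = 0.255), and with the processed signal it was 2.42 (adjusted p = 0.285). The plot of ratios by animal places these values beside those of the other members.

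**Figure D2:**
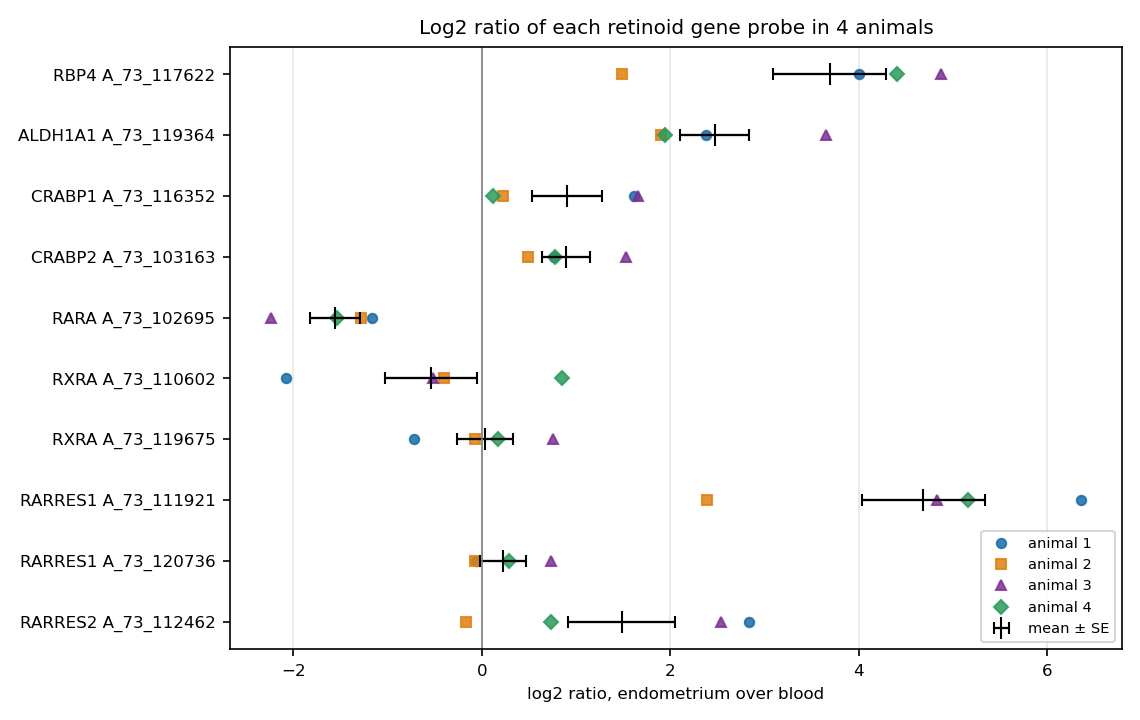
Log2 ratio of endometrium over blood (x axis) for each member probe (y axis), with 1 marker for each animal and a black bar for the mean ± SE over 4 animals. All 4 animals lie above 0 for RBP4, ALDH1A1, CRABP1, CRABP2 and RARRES1 A_73_111921 and below 0 for RARA. Animal 2 is the lowest of the 4 for RBP4, ALDH1A1, CRABP2, both RARRES1 probes and RARRES2.

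Across animals, some members followed 1 order in both tissues. RARA and RARRES1 A_73_111921 were highest in animal 1, then in animals 3, 4 and 2, in blood and in endometrium alike, and RBP4 ran in the order 3, 1, 4 and 2 in both. ALDH1A1 ran 1, 3, 4, 2 in blood and 3, 1, 4, 2 in endometrium, where animals 1 and 3 differed by less than 0.1. Both preparations of an animal lay on the same arrays, and this order is a description with no test.

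Markers of several cell types had positive median ratios. The macrophage and monocyte markers had a median log2 ratio of 1.22. Of the 12, 6 passed the unadjusted limits toward endometrium, where 5.28% of all probes passed, among them CSF1R at 2.76 and MRC1 at 2.63. CD14, ITGAM, PTPRC and S100A12 had negative means, at -0.33, -0.30, -0.36 and -0.57, and the other markers of the list had positive ones. The median was 1.66 over 15 epithelial markers and 2.43 over 4 markers of uterine gland secretion. It was 1.78 over 14 stromal markers and 2.67 over 14 trophoblast markers. The adjusted threshold was passed by 5 trophoblast markers, where 0.0661% of all probes tested passed. Over 10 endothelial markers the median was 0.58, with animal 2 at -0.26. The summed signal of epithelial markers was 1453 to 4064 in blood and 4194 to 58250 in endometrium, with animal 3 the highest. For stromal markers the sum was 1111 to 3490 in blood, and in endometrium of animals 1 to 4 it was 142959, 1262, 8994 and 3008. Endometrial signals of CRABP1 and RARRES2 were highest in animals 1 and 3, as were those of RBP4, ALDH1A1, CRABP2, RARA and RARRES1 A_73_111921. The part of any marker list in this order was not tested. Trophoblast markers summed to 1685 to 2526 in blood and 16153 to 51227 in endometrium, gland markers to 494 to 894 and 11875 to 70189, and endothelial markers to 1660 to 2455 and 1917 to 10249. The gland list holds SPP1, which the paper also lists as raised in human decidual macrophages. In endometrium of animal 1 SPP1, at 14.90, was brighter than SERPINA14, at 12.38. In the other animals SERPINA14 was the brighter. The gland sums and median are thus not particular to glands.

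Of the defining markers, the epithelial genes KRT8, KRT18 and EPCAM were well above background in all endometrial channels, with log2 ratios of 2.65, 3.21 and 3.03. CDH5 of endothelium and PAG2, PAG17 and PAG21 of trophoblast were not well above background in any blood channel, and PAG2 in no endometrial channel either. The 7 B cell markers had a median of -1.70, with MS4A1 at -3.28, and summed to 7401 to 47824 in blood and 3447 to 17784 in endometrium. The 10 natural killer and T cell markers had a median of 1.02 and summed to 37852 to 145610 in endometrium. The part of these cells in the members' ratios was not tested. The plot of marker medians shows how they varied by animal.

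**Figure D3:**
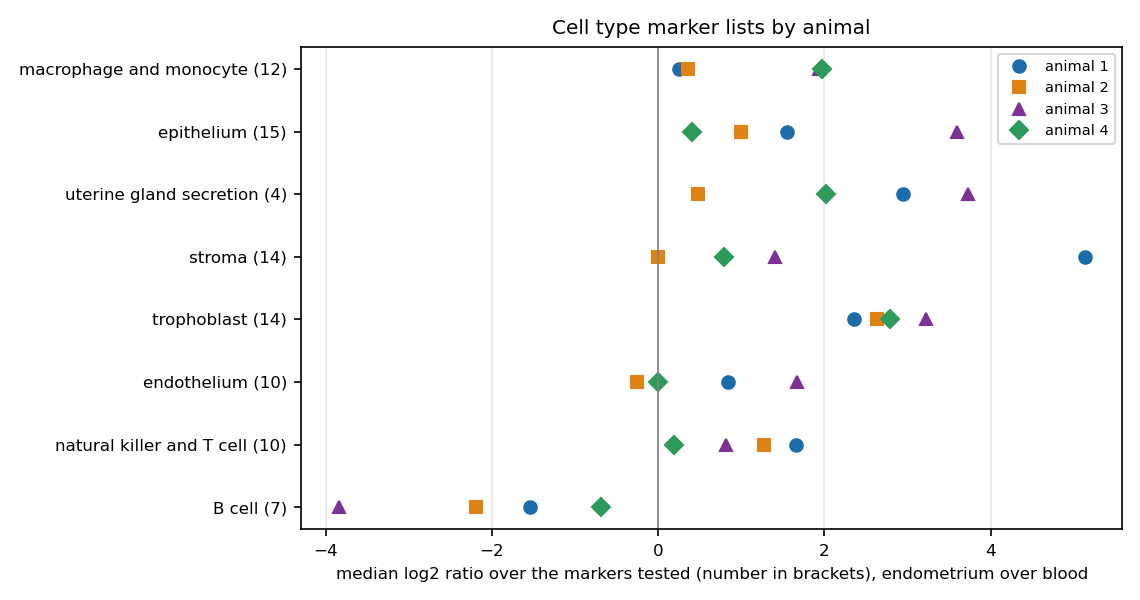
Median log2 ratio of endometrium over blood (x axis) for 8 lists of cell type markers (y axis), with the number of markers tested in brackets and 1 marker symbol for each animal. Stromal markers range from 0.00 in animal 2 to 5.13 in animal 1, epithelial markers are highest at 3.60 in animal 3, and trophoblast markers lie between 2.36 and 3.22 in all 4 animals.

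The way in which the signal was prepared decided whether members passed the threshold. With the scanner's processed signal, which is background-subtracted without an offset, 4 of the 10 member probes were differentially expressed where 1.03% of all probes were (0.955% higher in endometrium). With the authors' log2 values, derived from the same signal, 4 of 10 passed where 1.35% of all probes did (1.23% higher in endometrium). In both cases these were RBP4, ALDH1A1, CRABP2 and RARRES1 A_73_111921, all higher in endometrium. Under the authors' values the ratio of RBP4 was 4.92 (adjusted p = 0.00733), that of ALDH1A1 was 4.15 (adjusted p = 0.0243) and that of RARRES1 A_73_111921 was 5.68 (adjusted p = 0.00733), all with limma. CRABP2 had an adjusted p of 0.0132 with limma on those values, but its blood signal was not well above background, so no fold change is given. It passed the filter on dim probes through endometrium alone. Its part in both counts of 4 is therefore not evidence of a direction. These values shifted the median of all probes to -0.14, from -0.02, and the shift is small beside the ratios named.

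For ALDH1A1 the preparation of the signal changed which animal had the largest ratio. In animal 2 it was 5.62 in the authors' values and 1.90 after normexp, where an offset of 50 had been added to signals near the background. For RARA the authors' values gave -2.05 (adjusted p = 0.131), and for RXRA A_73_110602 -0.62 (adjusted p = 0.682), so neither was called by any of the 3 preparations. The plot of the preparations sets these ratios side by side.

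**Figure D4:**
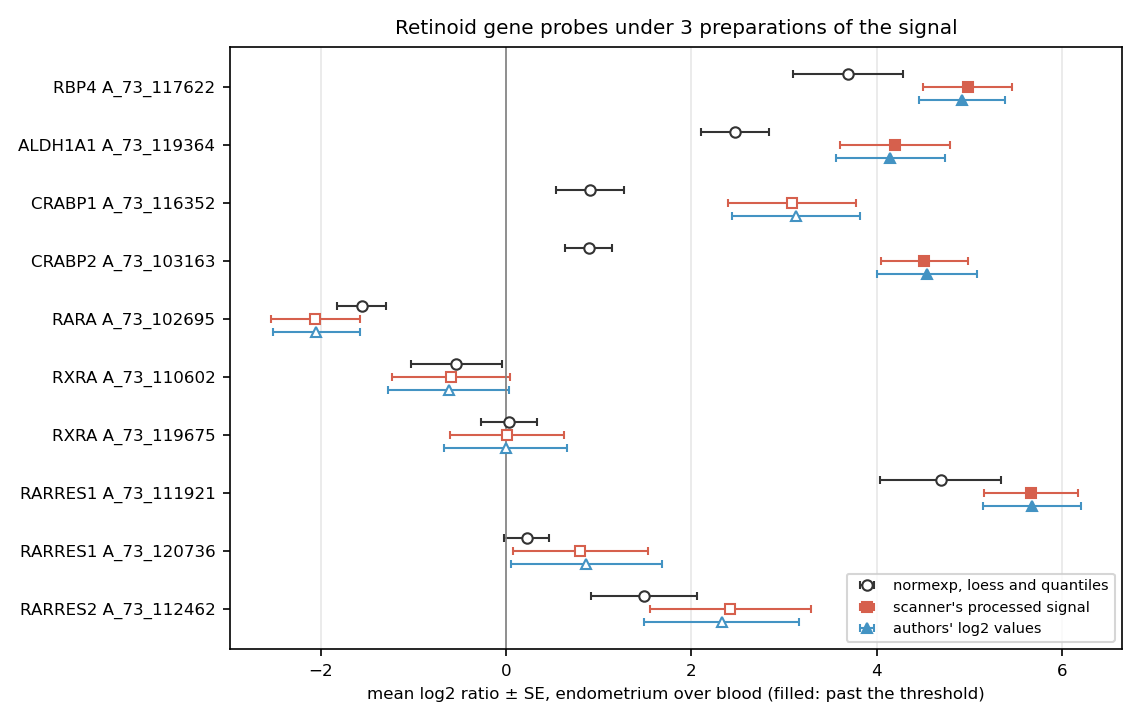
Mean log2 ratio of endometrium over blood ± SE over 4 animals (x axis) for each member probe (y axis) after normexp, loess and quantiles, with the scanner's processed signal and in the authors' log2 values. Filled symbols mark an adjusted p of at most 0.05 with a fold change over 2, reached by RBP4, ALDH1A1, CRABP2 and RARRES1 A_73_111921 with the latter signals, and the blood signal of CRABP2 was at the background.

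Other genes of the pathway were taken from lists of 75 genes arranged by role, of which 70 were found and 58 tested by the brightest probe of each gene. None of the 58 passed the adjusted threshold, and at an unadjusted p of at most 0.05 with a fold change over 2, limma listed 6 with higher signal in endometrium and 4 with lower, where 5.28% and 5.11% of all probes passed. The median log2 ratio over the 58 was 0.10, against -0.02 for all probes.

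Among 7 carriers and uptake genes, 6 could be tested and 1 was listed, with higher signal in endometrium. This was TTR, transthyretin, the plasma partner of RBP4, which had ratios of 2.03, 1.39, 2.87 and 0.02 in animals 1 to 4 and a mean of 1.58 (adjusted p = 0.273 with limma). In the authors' log2 values the TTR mean was 3.18 (adjusted p = 0.148).

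STRA6, the membrane receptor for RBP4, was detected unevenly. Its ratio was 4.54 in animal 1 and 1.62 in animal 4, where endometrial signals were 12.40 and 7.67, but 0.11 in animal 2 and 0.04 in animal 3, and the mean was 1.58 (adjusted p = 0.406, SE 0.81), or 3.06 (adjusted p = 0.215) in the authors' log2 values. The remaining carriers had smaller ratios. RBP2 was at 0.38, RBP5 at 0.07, RLBP1 at 0.30 and RBP3 at -0.51, with adjusted p between 0.414 and 0.914, and no channel had RBP7 well above background.

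Neither of the other retinal dehydrogenases tested passed the unadjusted threshold, and their difference from ALDH1A1 was not tested. ALDH1A2 had a log2 ratio of 0.68 (adjusted p = 0.626, SE 0.62), with 2.92 in animal 1 and values from -0.71 to 0.55 in the other animals. ALDH1A3 had a ratio of 1.24 (adjusted p = 0.364, SE 0.56) by its brightest probe, with animal 4 at -0.45, and one of -0.06 by probe A_73_115585. BCO2, which cleaves carotenoids, had a ratio of 0.33 (adjusted p = 0.561). Signals of ALDH8A1 and BCO1 were too low to be tested.

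Of the oxidoreductases that turn retinol into retinal or back, 10 of 16 found were tested. DHRS9 was the only one listed at the unadjusted threshold, with a log2 ratio of 1.04 (adjusted p = 0.318, SE 0.40), 1.89 and 1.80 in animals 3 and 4 but 0.05 and 0.42 in animals 1 and 2. In the authors' log2 values the DHRS9 ratio was 2.53 (adjusted p = 0.193). LRAT, the enzyme that esterifies retinol for storage, was not well above background in any blood channel by its brightest probe, and was at least 1.21-fold higher in endometrium (adjusted p = 0.521). Of the 4 esterification and hydrolysis genes tested, 0 were listed.

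The hydroxylases that degrade retinoic acid were weakly detected. CYP26B1 had ratios above 0 in each of the 4 animals, with a mean log2 ratio of 0.58 (adjusted p = 0.386, SE 0.28) and 4 blood channels well above background. In the authors' log2 values it was 1.96 (adjusted p = 0.232). CYP26C1 had a ratio of 0.11 (adjusted p = 0.849), and CYP26A1 was well above background in 2 endometrial and 0 blood channels and was not tested.

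FABP5, a fatty acid binding protein that also carries retinoic acid, had a log2 ratio of 1.57 (adjusted p = 0.309, SE 0.59) by the brighter probe, which was among those listed. Its ratios were 2.99 and 2.72 in animals 3 and 4 but 0.37 and 0.20 in animals 1 and 2. The second probe, A_73_121108, gave 0.61 (adjusted p = 0.690), with negative ratios in animals 1 and 2.

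The remaining retinoid receptors had smaller ratios than RARA. RARB had a log2 ratio of -0.28 (adjusted p = 0.826, SE 0.48), RARG of -0.19 (adjusted p = 0.791, SE 0.29) and RXRB of 0.60 (adjusted p = 0.454, SE 0.35), and no channel had RXRG well above background. The RARB ratio was 1.47 in animal 1 and between -1.07 and -0.67 in the other animals.

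Receptors that pair with RXR differed in both directions at the unadjusted threshold. NR1H3, a liver X receptor active in macrophages, had higher endometrial signal in each of the 4 animals and a mean log2 ratio of 1.02 (adjusted p = 0.262, SE 0.22). PPARD was lower in endometrium in each of the 4 animals, at a mean ratio of -1.09 (adjusted p = 0.276, SE 0.35). NR1H2, the other liver X receptor, was also higher in blood in 4 of 4 animals, with a fold change just under 2 (1.998).

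Of the coregulators of nuclear receptors, 3 of 8 were listed by their brightest probe, all higher in blood in 4 of 4 animals, where 5.11% of all probes passed in this direction and 14.7% were higher in blood in every animal. NRIP1, a corepressor, had a log2 ratio of -1.58 (adjusted p = 0.270, SE 0.47), CREBBP, an acetyltransferase, of -1.17 (adjusted p = 0.262, SE 0.27), and NCOA1, a coactivator, of -1.21 (adjusted p = 0.302, SE 0.44). Probes of the same gene differed. NCOA3 had a ratio of -1.86 (adjusted p = 0.262) by probe A_73_100379 and of -0.15 by its brighter probe, and the other NCOA1 probes gave 0.14 and -0.20. The median over the list was -0.51.

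Among 9 genes named for or known for induction by retinoic acid, RAI14 and RAI2 were listed, both higher in endometrium in 4 of 4 animals. RAI14, an actin-associated protein, had ratios of 3.38, 0.94, 3.37 and 2.35 in animals 1 to 4 and a mean of 2.51 (adjusted p = 0.247, SE 0.47). RAI2 had ratios of 3.25, 0.32, 2.80 and 0.76 and a mean of 1.78 (adjusted p = 0.276, SE 0.58). With the scanner's processed signal both passed the adjusted threshold, RAI14 at a log2 ratio of 3.70 (adjusted p = 0.0265) and RAI2 at 3.75 (adjusted p = 0.0362). As with ALDH1A1, CRABP1 and RARRES2, the ratios of both genes were highest in animals 1 and 3.

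The receptors for chemerin showed no common direction. CMKLR1 had a log2 ratio of 0.38 (adjusted p = 0.602, SE 0.32) and was largest in animal 1. CCRL2 had a ratio of -0.21 (adjusted p = 0.950, SE 0.96), from -3.57 in animal 1 to 2.55 in animal 3, and its blood signal of 13.51 in animal 1 compares with 8.49 to 10.18 in the other animals. GPR1 was well above background in 2 endometrial channels and no blood channel.

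**Figure D5:**
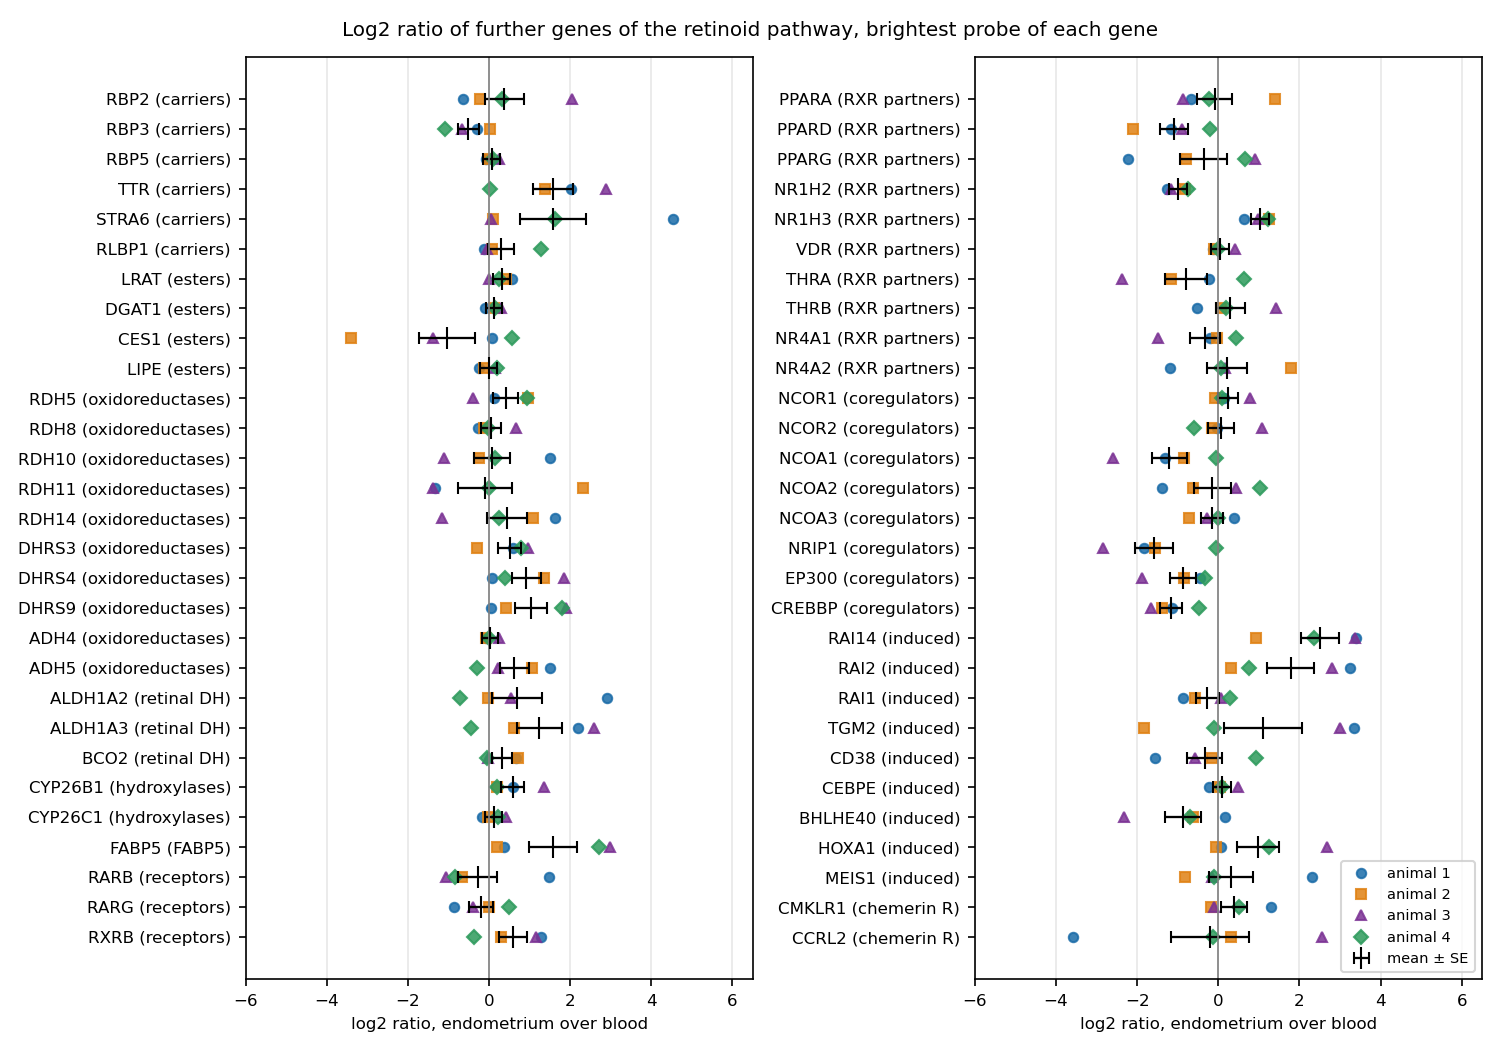
Log2 ratio of endometrium over blood (x axis) for the brightest probe of each of 58 further genes of the retinoid pathway (y axis, role in brackets), with 1 marker for each animal and a black bar for the mean ± SE over 4 animals. RAI14, at 2.51, has the highest mean, and NRIP1, at -1.58, has the lowest mean.

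The genes whose signals ran most like a member's over the 8 preparations were found by Pearson's r, as a description that shares the arrays and the tissue difference. RBP4 was followed most closely by MME, a membrane metallopeptidase (r = 0.998), by the chemokine CXCL14 (r = 0.970) and by MOB3B (r = 0.968). RARRES1 A_73_111921 was followed by PID1 (r = 0.993) and by the complement genes C1QB (r = 0.986) and C1QA (r = 0.980), with log2 ratios of 4.26, 3.62 and 3.81. For ALDH1A1 the nearest were CKB (r = 0.989), CCDC50 (r = 0.980) and EPHX2 (r = 0.979). CRABP2 ran with SLC4A4 (r = 0.991), with the prolactin-related protein PRP4 (r = 0.979) and with TUBA1D (r = 0.977). CRABP1 ran with PLPP3 and PCDH12 (both r = 0.993) and WWTR1 (r = 0.989), and RARRES2 with IGF1 and UACA (both r = 0.990) and EPHB4 (r = 0.990). RARA was nearest to SPTLC1 (r = 0.955), TLE4 (r = 0.953) and LRRC8B (r = 0.950), and RXRA A_73_110602 to MARCKSL1 (r = 0.972), FGF18 (r = 0.967) and HCAR2 (r = 0.963).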

How the data were processed

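RNA of blood and endometrial CD14+ cells of 4 cows was compared on 8 two-color arrays. Spot intensity in both dyes, as deposited, came from Agilent Feature Extraction (version 9.5 per the labels, 10.5.1.1 per the file headers). The authors also deposited quantile-normalized log2 values. Of 42990 spots that were not controls, 21465 of the 21475 probes had 2. The share of spots well above background was 65.2% to 82.9% by channel, and 0 were saturated. Precision is limited by the number of animals, which is 4. The log2 values of each technical replicate matched (within 0.001, at 100% of the probes) the scanner file of that animal's other replicate in the labeled dye, and matched its own file at no more than 0.69% in either dye. The scanner files were therefore exchanged within each animal, which turns the sign in animals 1, 2 and 4.

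Median intensities were corrected by normexp (offset 50) and normalized by loess within arrays and quantiles over the 16 channels with limma 3.58.1 in R 4.3.3. Aquantile, which leaves ratios as loess gives them, corresponds to the alternative without quantiles. Outlier spots were left out, spots of a probe averaged, and the 2 arrays of an animal averaged. A probe counted as well above background in a channel if all its spots did, and was tested if this held in at least 4 of 8 channels of a tissue. Ratios of 4 animals were tested against 0 with lmFit and eBayes, with Benjamini-Hochberg adjustment over all 16653 probes tested. Replicate numbers of the labels are the animals. The deviations from the tissue means correlated between both preparations of a cow at 0.618, 0.364, 0.209 and 0.465.

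The members and the gene lists were chosen with earlier results of these data known. The genes named were all member probes, every probe of the pathway lists at an unadjusted p of at most 0.05 with a fold change over 2, every carrier, retinal dehydrogenase, hydroxylase, retinoid receptor and chemerin receptor found (a further carrier gene, left out of the list counts, is not reported here), the 3 genes nearest to each member, and defining markers. Probes were named by accession (3519), gene identifier (9987) or gene name (297) through RefSeq names of ARS-UCD2.0, and 7672 kept the name in the files. Coordinates were not used. Alternatives were the processed signal, the authors' log2 values, loess without quantiles, other filters, unpaired and per-array fits, each slide, the methods' analysis of variance, each animal left out, and the files as attached.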

Additional observations from a re-analysis of the deposited data

Results flagged for a closer look

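Of 30 sets of 4 values (blood signal, endometrial signal and ratio of each member probe), 1 had a sample far from the others, and chance alone flags about 1 in 20 such sets. The blood signal of RXRA A_73_119675 was 7.07 in animal 1 and 6.41 to 6.44 in the other animals. The other RXRA probe was also highest in that preparation, at 10.37 against 7.25 to 8.18. The same preparation had the highest CD14 signal, 14.24, and the part of its monocyte markers in this value was not tested.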

How the results depend on the processing

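In every setting but the files as attached, RBP4, ALDH1A1, CRABP1, CRABP2, both RARRES1 probes and RARRES2 had positive mean ratios and RARA and RXRA A_73_110602 negative ones, except that CRABP1 and RARRES1 A_73_120736 did not pass the filter on all 8 channels and have no value there. The number of member probes called, 0 with limma on the ratios per animal, was 4 with the processed signal, 4 with the authors' log2 values, 4 in the fit to 8 arrays with a dye term (4.76% of all probes called), 4 in that with slide as a block (3.01%), and 1 (RARRES1 A_73_111921) among probes well above background in all 8 channels of a tissue (0.325%). The fits to 8 arrays enter the technical arrays of an animal as separate values, with animal as a random block. They hold no more animals than the main fit, so their larger counts do not rest on more animals. They called RARA in place of CRABP2, and the cause was not tested. With each animal left out in turn 0 were called. At the unadjusted p, 5 members passed, 7 with the processed signal, 7 with the authors' log2 values, 4 with the methods' analysis of variance, 4 without a filter, 3 without the replicate block (the unpaired fit), 0 with the files as attached, and 4 to 6 with an animal left out.

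Over all probes, 11 were called, against 171 with the processed signal, 224 with the authors' log2 values, 5 without quantiles, 5 without a filter, 44 with the stricter filter, 4 without the replicate block, 0 with the methods' analysis of variance (lowest adjusted p 0.106), 792 with a dye term, 501 with slide as a block, 20 within slide 1, 5 within slide 2, 0 with the files as attached and 0 with any animal left out. At the unadjusted p with a fold change over 2, 1730 passed, against 2670 with the authors' log2 values, 1124 without the replicate block, 687 with the analysis of variance, 121 with the files as attached, and 916 to 2258 with an animal left out. Without quantiles 977 passed higher in endometrium and 585 higher in blood, against 879 and 851.

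RXRA A_73_119675 changed sign to -0.0045 in the authors' log2 values and -0.0064 without quantiles, and ranged from -0.21 to 0.28 with an animal left out. ALDH1A3 A_73_115585 was 0.014 within slide 1. With an animal left out, ALDH1A2 ranged from -0.061 (without animal 1) to 1.15, RARG from -0.42 to 0.032 (without animal 1), CCRL2 from -1.13 to 0.91 (without animal 1) and RBP2 from -0.17 (without animal 3) to 0.72. ALDH1A3 A_73_115585 was 0.10 without animal 1 and RLBP1 -0.032 without animal 4, where RXRA A_73_119675 was -0.013.

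With the files as attached, in which the sign of 3 animals is turned and none of these ratios was called, ALDH1A1 was -0.64, RBP4 -1.26, CRABP1 -0.077, CRABP2 -0.13, RARA 0.44, RXRA A_73_110602 0.28, RARRES1 A_73_111921 -2.27 and RARRES2 -0.22. RBP3 was 0.17, TTR -0.14, STRA6 -1.56, RLBP1 -0.33, DHRS9 -0.097, ALDH1A2 -0.41, ALDH1A3 A_73_115585 0.15, BCO2 -0.34, FABP5 -0.075, RXRB -0.019, PPARD 0.64, NR1H3 -0.53, NCOA3 0.22, NRIP1 0.15, CREBBP 0.33, RAI14 -0.83, RAI2 -0.38, CMKLR1 -0.43 and CCRL2 1.48. Signal over background limited CRABP1, CRABP2 and RARRES1 A_73_120736 most.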
